A study of Mus musculus with 8 samples.

Results

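The cytosolic ribosomal protein genes were taken by name: every protein-coding gene whose symbol begins with Rpl, Rps or Rplp followed by a digit, without the Rps6k kinases and without symbols marked as pseudogenes. This gave 80 genes of the 19673 listed. RNA came from live CD45+CD3e+CD8+ cells sorted from tumours of the mouse mammary line Py8119, grown in Mtdh KO hosts (4 libraries, KO1 to KO4) or in wild-type hosts (4 libraries, WT1 to WT4). The labels describe each library as a biological replicate and give no strain, age, sex or knockout design, and all 8 tumours came from the same injected line. The genotype is that of the host, so Mtdh (metadherin) was first read in each library. Its normalised value was 5118, 4622, 2538 and 3341 in KO1 to KO4 and 9324, 12745, 6407 and 7974 in WT1 to WT4. The groups did not overlap, and the log2 difference, KO minus WT, was -1.23 (limma on log2(value + 1), SE 0.25, adjusted p = 0.040; exact two-sided permutation p = 0.0286, the smallest that 4 against 4 allows). The adjusted p rose to 0.0945 with a minimum mean of 50, and up to 0.241 when single libraries were left out.

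The cytosolic ribosome joins a small subunit, which reads the messenger RNA, to a large subunit, which forms peptide bonds, and each holds ribosomal RNA and 1 copy of most of its proteins. The messages of these proteins usually start with a run of pyrimidines, the terminal oligopyrimidine (TOP) tract, through which mTORC1 and Larp1 tie their translation to growth signals. CD8 T cells raise ribosome production when activated. Ribosomal protein genes are also among the most common sources of processed pseudogenes, intron-less copies of a message inserted elsewhere in the genome.

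Of the 80 genes, 74 are canonical ribosomal proteins, 45 of the large and 29 of the small subunit, and 5 are paralogs (Rpl7l1, Rpl22l1, Rpl36al, Rps27l and Rps27rt). The remaining gene, Rps19bp1, is named for its binding to a ribosomal protein and encodes none. Rpl17 and Rps27 were not analysed here. Fau and Rack1 are among the ribosomal proteins outside the name rule and are given below. All 80 had a mean of at least 10, the minimum for testing, as did 16120 genes in all.

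Most of the ribosomal protein signal was listed under copies of these genes rather than the genes themselves. By alignment of GENCODE M21 transcripts, 290 listed genes were copies of 73 of the 80, with at least 90% identity over at least 50% of the copy, and 283 of the 290 are annotated as pseudogenes. Median identity was 98.3%. The genes held 35.7% to 43.2% of the summed value of genes and copies in each library, and for 47 genes the copies together exceeded the gene. The sequences below are shown because they are what separates a gene from its most abundant copy. Each pair is a stretch of 90 coding bases, chosen as the stretch with the most differences, in lower case with differing bases in capitals.

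Rps7: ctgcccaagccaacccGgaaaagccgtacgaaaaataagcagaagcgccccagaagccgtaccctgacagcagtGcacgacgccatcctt
Gm9493: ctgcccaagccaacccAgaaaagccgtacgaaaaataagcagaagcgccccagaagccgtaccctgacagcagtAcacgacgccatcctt
Rpl3: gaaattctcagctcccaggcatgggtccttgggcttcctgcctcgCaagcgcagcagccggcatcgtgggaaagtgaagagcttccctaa
Rpl3-ps1: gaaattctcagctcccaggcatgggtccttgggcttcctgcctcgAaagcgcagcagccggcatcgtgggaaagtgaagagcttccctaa

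On GRCm38 the copies lie at chr19:23620036-23620125 (Gm9493, plus strand) and chrX:13202583-13202672 (Rpl3-ps1, plus strand). The Rpl3 stretch lies at chr15:80082485-80082574 on the minus strand. That of Rps7 crosses an intron, and is bases 301 to 390 of its coding sequence. Over the aligned coding sequence, Gm9493 differed from Rps7 at 3 of 568 bases and Rpl3-ps1 from Rpl3 at 2 of 1209. Gm15500 was identical to Rpl5 over all 891 coding bases.

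Rps7, a small-subunit protein, had a mean of 187 while Gm9493 had a mean of 12789. Gm15500 had a mean of 9663 against 660 for Rpl5, which assembles with 5S ribosomal RNA. Rpl3, a protein near the peptidyl transferase centre, had a mean of 571 against 6956 for Rpl3-ps1. In Rps7 itself the values were 280, 7.87, 234 and 260 in KO1 to KO4 and 8.21, 221, 127 and 360 in WT1 to WT4. Gm9493 ran from 9429 to 17677 over the same libraries. The gene thus varied between libraries where the copy did not come near 0. Across the 80 genes, a median of 37.4% of the 50-base windows of the longest transcript occur exactly in a listed copy, from 0% to 85.6%, with over 50% in 26 genes.

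Most listed values of these genes were not whole numbers of reads, except in KO2. Among values of up to 500 reads, 17.4% to 56.5% of the genes' values were a whole number of reads within 0.02, against 86.8% to 93.3% for other protein-coding genes. The split of reads between a gene and its near-identical copies is therefore uncertain, and the counts, medians and many single genes are also given for families, the sum of a gene and its listed copies. This second reading was added after the data had been seen. Median coefficient of variation over the 8 libraries was 0.575 for genes and 0.451 for families.

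**Figure D1:**
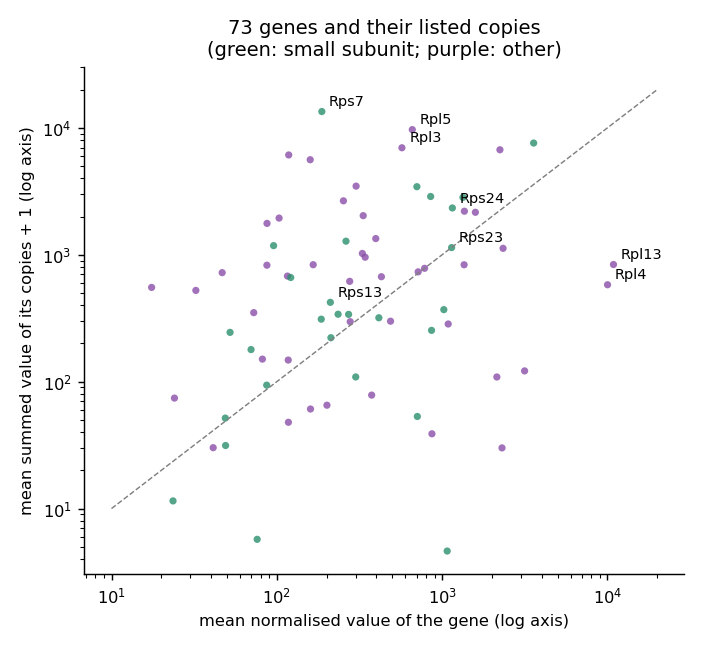
Mean normalised value of each of the 73 genes with copies against the mean summed value of its copies plus 1, both on log axes, with the line of equality dashed. The copies exceed the gene for 47 genes, while Rpl13 and Rpl4 lie far to the right of the line.

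Per kilobase of the longest protein-coding transcript, the median gene stood at 327, against 111 for 12543 protein-coding genes tested, the 77.1th percentile. As families the median was 1026 per kilobase, the 93.5th percentile of the same single-gene values. Copies were added for the families only, so the family percentiles set a sum against single genes. By value per kilobase 22 genes and 49 families lay above the 90th percentile, and 23 genes lay below the median of all.

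The highest means belonged to Rpl13 and Rpl4, both of the large subunit. Rpl13 had values of 5793, 5435, 13279 and 15595 in KO1 to KO4 and 4782, 5716, 12994 and 23465 in WT1 to WT4. In both groups libraries 1 and 2 were low and libraries 3 and 4 high. Rpl4 had values of 7395, 10080, 14611 and 11100 in KO and 8421, 4990, 10680 and 12879 in WT. Its groups overlapped, and again libraries 3 and 4 were the highest of each.

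The lowest means were those of Rpl23a (17.5), Rps27l (22.9) and Rps29 (23.6). Rpl23a, a large-subunit protein at the exit tunnel, was under 10 in 7 of 8 libraries and reached 129 in WT2, while its 5 copies had a mean sum of 552. Rps27l, a paralog of Rps27, was under 10 in 4 libraries and between 43.4 and 46.2 in the other 4. Rps29 was listed at 0 in KO1, KO2, WT1 and WT2, and had 54.5 and 9.47 in KO3 and KO4 and 41.9 and 82.5 in WT3 and WT4. In all, 34 genes fell under 10 in at least 1 library, against 17 families.

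The ribosomal protein genes differed between libraries of the same host genotype, and did so together. Their summed value was 56111, 52577, 88539 and 75608 in KO1 to KO4 and 52648, 44628, 79636 and 90067 in WT1 to WT4. Libraries numbered 1 and 2 were low and those numbered 3 and 4 high in both groups. The KO mean was 68209 ± 16919 (SD, n = 4) and the WT mean 66745 ± 21587 (SD, n = 4), a difference far smaller than the spread within either group. The copies followed the same order of low and high libraries, with sums of 101051, 69160, 141632 and 115421 in KO and 88439, 70254, 143482 and 128589 in WT. As families the genes held 0.457% to 1.08% of each library's summed value.

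Centred on each gene's own mean of log2(value + 1), the median gene lay at -0.23, -0.41, 0.72 and 0.33 in KO1 to KO4 and at -0.06, -0.43, 0.52 and 0.53 in WT1 to WT4. The same median over the other protein-coding genes ran only from -0.12 to 0.16. The values were divided by DESeq2 size factors, which keep the typical gene level between libraries, so this narrow range was partly set by the normalisation. In both subunits libraries 3 and 4 lay above libraries 1 and 2 of the same group, though not all of the latter lay below 0. The large-subunit median was -0.08, -0.58, 0.73 and 0.20 in KO and 0.04, -0.20, 0.49 and 0.40 in WT. The small-subunit median was -0.26, -0.23, 0.67 and 0.42 in KO and -0.55, -0.42, 0.54 and 0.68 in WT. Genes under 10 numbered 20, 24, 5 and 5 in KO1 to KO4 and 14, 11, 1 and 3 in WT1 to WT4. Other tested protein-coding genes had more values under 10 in much the same libraries: 16.3%, 27%, 10.8% and 9.99% in KO and 15.0%, 15.2%, 6.39% and 9.34% in WT, against 25%, 30%, 6.25% and 6.25% and 17.5%, 13.75%, 1.25% and 3.75% of the 80.

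**Figure D2:**
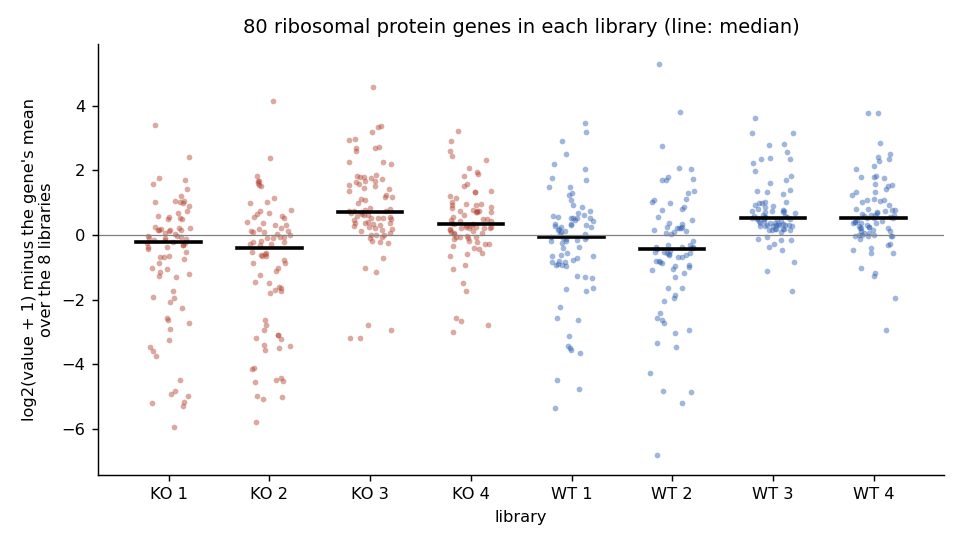
Each point is 1 of the 80 ribosomal protein genes, plotted by library as log2(value + 1) minus that gene's mean over the 8 libraries, with the median as a line. The medians of KO3, KO4, WT3 and WT4 lie above 0 and those of KO1, KO2, WT1 and WT2 below it, and the low tails are longest in KO1, KO2, WT1 and WT2.

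Library complexity moved with this pattern. The number of distinct cDNA fragments, estimated from how many moderately expressed genes went undetected, was 215000, 111000, 371000 and 420000 in KO1 to KO4 and 258000, 252000, 636000 and 481000 in WT1 to WT4. The low libraries were again those numbered 1 and 2. Their estimated depth in reads did not follow that order (16400000 in KO3, the lowest, to 29600000 in KO4). At these numbers a single fragment was worth a normalised value of 23.4 to 154, so many of the genes' values stand for a handful of fragments. Markers of other cells were also present. Over the 15 macrophage and monocyte markers the sum was 118700 to 261786 in KO and 200038 to 309398 in WT, above the sum of the 12 CD8 T cell markers in every library (24862 to 51713 in KO, 8893 to 32044 in WT). No CD8 T cell marker was at 0 in all libraries. The part of fragment number and of cell makeup in the library pattern was not tested, and in bulk RNA fewer cells of a type and less RNA per cell cannot be told apart.

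Small nucleolar RNAs, which guide modification of ribosomal RNA, are often processed from introns of ribosomal protein genes. On the same strand, 45 listed ones lay within 24 of the 80 genes. Snord83b, in an intron of Rpl3, had values of 3065, 4067, 9098 and 10443 in KO1 to KO4 and 3017, 3720, 8701 and 17351 in WT1 to WT4. Snord32a, within Rpl13a, had 600, 823, 3028 and 3244 in KO and 549, 587, 2414 and 3949 in WT. Libraries 3 and 4 were the highest for both in each group. They were also the highest in Rpl13a, with 1208, 1054, 2008 and 1731 in KO and 806, 717, 1574 and 1770 in WT. Rpl3 itself did not show that order, with 737, 654, 795 and 186 in KO and 593, 681, 488 and 436 in WT. Rpl3 as listed held only 7.58% of the summed value of its family. Summed over the 45, the values were 13766, 16504, 34757 and 39093 in KO and 13896, 17076, 36363 and 61209 in WT. Of the 39 tested between host genotypes none was called, with 7 positive and 32 negative log2 differences and a median of -0.36. Over all genes tested 0.236% were called, 43.4% were positive and the median was -0.12. The 24 host genes had a median of 429 per kilobase and the other 56 genes 234.

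**Figure D3:**
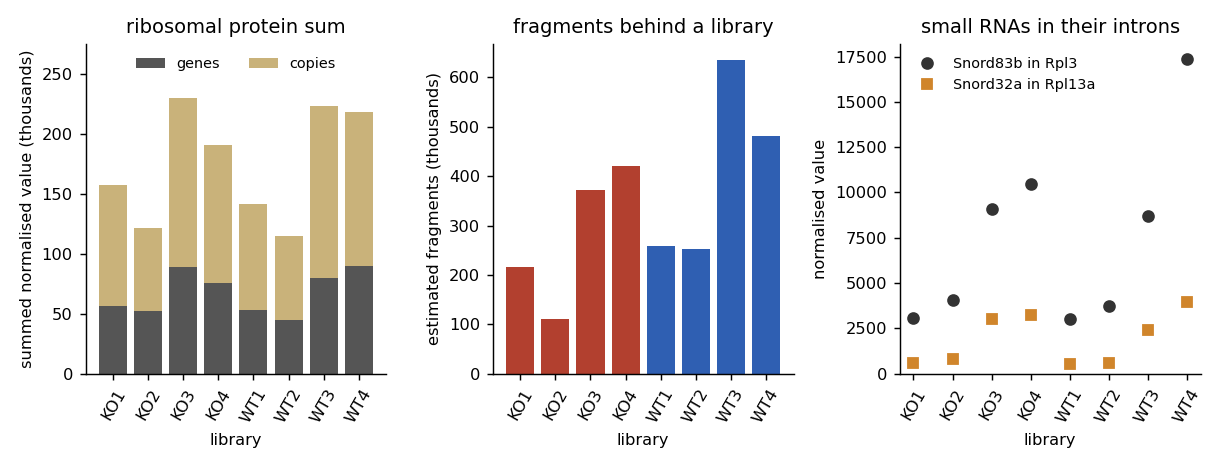
By library: summed normalised value of the 80 genes and of their copies (left), estimated fragments (middle; KO red, WT blue), and normalised values of Snord83b and Snord32a (right). In each panel libraries 3 and 4 of both groups stand above libraries 1 and 2.

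Between KO and WT hosts no ribosomal protein gene passed the test: 0 of 80 reached an adjusted p of 0.05 (limma, Benjamini-Hochberg over all genes), where 0.236% of all genes tested were called. At an unadjusted p under 0.05 stood 2 of the 80, Rps13 and Rps24, which is 2.5% against 6.70% of all genes tested. Groups without overlap were found for 0 genes with KO above WT (2.02% of all genes) and 0 with KO below WT (2.09% of all genes). Adjusted p ran from 0.516 to 0.996.

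The median log2 difference, KO minus WT, was -0.20 over the 80 genes, with 33 positive and 47 negative, beside -0.12 over all genes tested. It was -0.19 for the large subunit (17 of 45 positive), 0.15 for the small subunit (15 of 29 positive) and -0.48 for the 5 paralogs. Over all 5509 genes tested with a mean of at least 500 the median was -0.00045 (2752 positive). Among the 27 ribosomal protein genes with such a mean it was 0.22 (18 positive) and the differences ran from -1.12 to 0.53. Among the 53 below 500 the median was -0.59 (15 positive) and the differences ran from -3.32 to 3.86. The wider differences were thus among the genes with lower means: the median SE was 0.34 in the first set and 1.5 in the second. The sign of the 80-gene median was not stable, turning to 0.12 with quantile normalization, 0.11 without KO1, 0.05 without KO2 and 0.01 without WT3.

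What the data allow is given by the intervals. The 95% interval lay wholly within 1 log2 unit of 0 for 14 of the 80 genes, all of them with a mean of at least 500, and for 31 of the 80 families. For each of the other genes the interval reached past a 2-fold change in at least 1 direction. The narrowest was that of Rpl22, at -0.25 (95% interval -0.75 to 0.25).

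**Figure D4:**
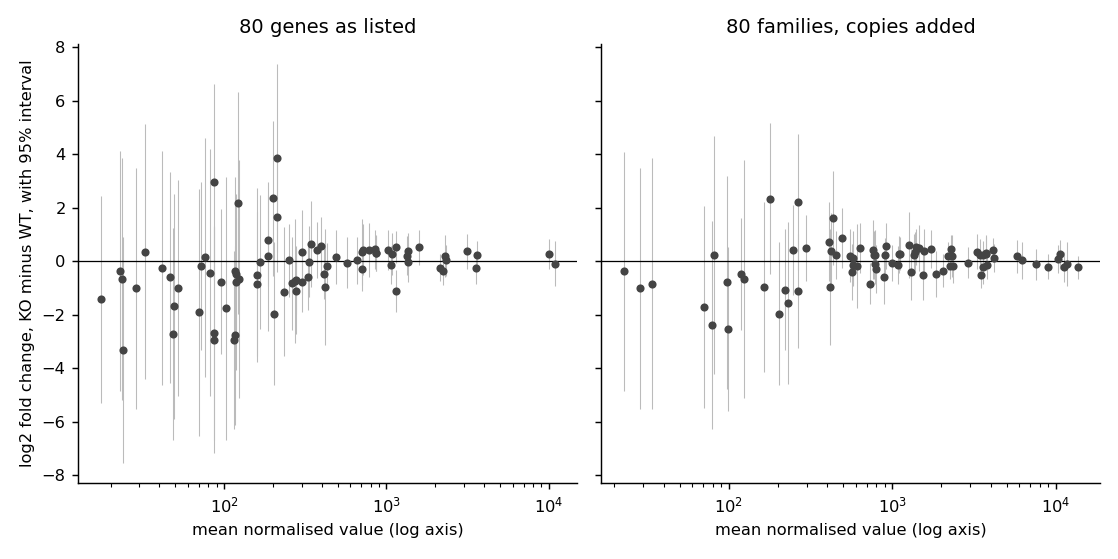
Log2 difference, KO minus WT, with its 95% interval against the mean normalised value (log axis), for the 80 genes as listed (left) and for the 80 families (right). The spread is widest at low means, and adding copies moves most families to higher means with shorter intervals.

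Rps24, a small-subunit protein needed for maturation of the small ribosomal RNA, had the smallest p. Its values were 811, 289, 1400 and 673 in KO1 to KO4 and 1481, 1723, 1161 and 1688 in WT1 to WT4. KO3 lay above WT3, so the groups overlapped. The log2 difference was -1.12 (SE 0.38, adjusted p = 0.516 by limma). Its 6 copies had a mean sum of 2337, and the family gave -0.52 (SE 0.24, adjusted p = 0.724).

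Rps13, a small-subunit protein, had values of 130, 997, 256 and 63.9 in KO and 1.10, 0.95, 70.9 and 166 in WT. WT1 and WT2 stood near 1 and KO2 alone near 1000, and the groups overlapped. The log2 difference was 3.86 (SE 1.68, adjusted p = 0.730 by limma). With its 3 copies added the values were 435, 1211, 846 and 454 in KO and 546, 225, 765 and 572 in WT, and the difference shrank to 0.48 (SE 0.45).

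Of the other genes with the smallest p on the positive side, Rps23 and Rplp0 were abundant and Rpl36 and Rps12 were not. Rps23, at the decoding centre, had 1761, 1169, 1108 and 1345 in KO and 704, 848, 996 and 1201 in WT, a log2 difference of 0.53 (SE 0.29, adjusted p = 0.770 by limma), or 0.45 (SE 0.26) as a family. Rplp0, the base of the ribosomal stalk, had 1641, 1951, 1872 and 1729 in KO and 1165, 612, 1944 and 1803 in WT, a difference of 0.51 (SE 0.32), or 0.27 (SE 0.30) as a family. KO values were close together in Rplp0, and WT2 was low. Rpl36 was listed at 0 in WT2 and between 169 and 213 in the other WT libraries, against 170 to 357 in KO. Rps12 had 44.96 and 13.5 in WT1 and WT2 but 295 and 234 in WT3 and WT4, against 142 to 419 in KO. As families, Rpl36 gave 2.20 (SE 1.22) beside 2.34 for the gene, and Rps12 gave 1.62 beside 1.65. In Rps12 the lowest values of the WT group were again in WT1 and WT2.

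On the negative side, Rpl21, Rpl18 and Rplp2 each had a KO library near 1. Rpl21 had 6.10, 1.25, 144 and 58.2 in KO and 72.3, 76.8, 268 and 301 in WT, a log2 difference of -2.93 (SE 1.59). Rpl21 has 19 listed copies, and its family gave -0.30 (SE 0.43). Rpl18 had 0.90, 4.40, 202 and 111 in KO and 194, 200, 103 and 122 in WT, a difference of -2.76 (SE 1.61) that became -1.11 (SE 1.02) for the family. Rplp2, a stalk protein with no listed copy, had 237, 1.10, 249 and 95.5 in KO and 273, 472, 139 and 151 in WT. Rpl29 had 22.4 in KO1 and was at or near 0 in the other KO libraries, against 1.86, 12.9, 60.8 and 94.3 in WT, and Rpl34 had 48.9 to 476 in KO and 115 to 441 in WT. The log2 difference of Rpl29 was -3.32 for the gene and -0.79 for the family, and that of Rpl34 was -1.13 and -0.60. In Rpl21 and Rpl18 the low values were in KO1 and KO2, and in Rplp2 in KO2.

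**Figure D5:**
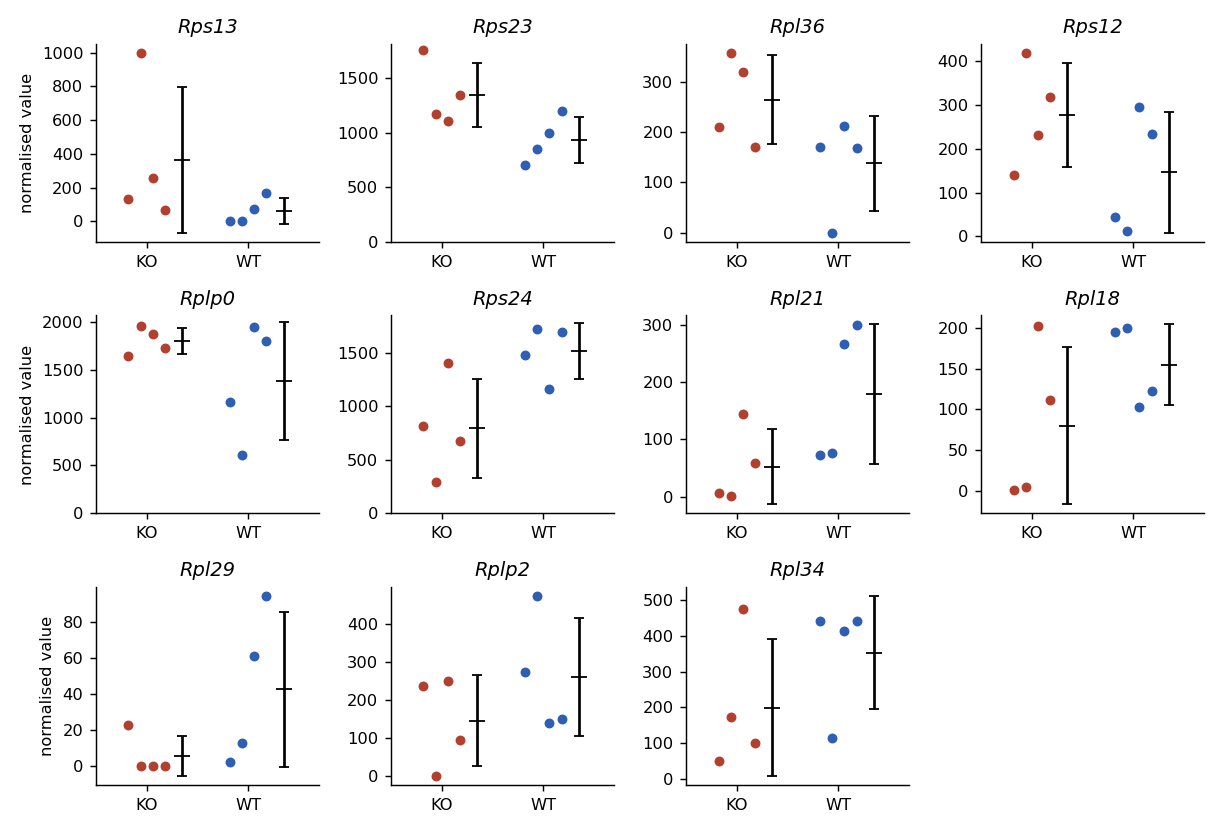
Normalised values of 11 genes among those with the smallest unadjusted p in each direction, 1 point per library in replicate order (KO red, WT blue), with mean and SD. The groups overlap in all 11 genes, and points at or near 0 appear in 6 of them.

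A further few genes were chosen for their roles or their few copies after their values had been seen. Rplp1, the third stalk protein, had 4343, 2056, 3416 and 4115 in KO and 1561, 1915, 4172 and 3665 in WT, a log2 difference of 0.36 (SE 0.31) for the gene and for the family. With Rplp0 and Rplp2 the stalk genes thus had 2 positive values and 1 negative, all with overlapping groups. Rpl11, the partner of Rpl5 on 5S ribosomal RNA, had a mean of 46.7 beside a summed mean of 722 in its 4 copies, and gave -0.61 (SE 1.90), or 0.22 (SE 0.43) as a family.

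Rps6, the ribosomal substrate of the S6 kinases below mTORC1, had 27.7, 24.4, 99.0 and 114 in KO and 27.6, 56.0, 176 and 240 in WT. Both groups had their higher values in libraries 3 and 4. Its difference was -0.76 (SE 1.30) for the gene and 0.61 (SE 0.59) for the family, so that even the sign depended on whether the copy was counted. Rps19, whose loss causes Diamond-Blackfan anaemia in people, had 120, 3.41, 376 and 201 in KO and 1.99, 0.95, 176 and 92.8 in WT. Its lowest values were in KO2, WT1 and WT2, and the difference of 2.18 (SE 1.99) became 0.21 (SE 0.45) with its 4 copies added.

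Genes with little or no signal in copies did not all follow the library order of the sum. Rps3, at the messenger RNA entry site, had a single copy with a mean of 3.63 and values of 710, 827, 1545 and 984 in KO and 935, 639, 1379 and 1568 in WT. Rpl32, a large-subunit protein, had a single copy with a mean of 29.1 and values of 2400, 1310, 3383 and 2222 in KO and 1200, 989, 3417 and 3505 in WT. In Rps3 libraries 3 and 4 were the highest of each group, and in Rpl32 they were so in WT, while KO1 lay just above KO4. Rpl22, which held 95.2% of its family, had 2412, 1415, 2100 and 1961 in KO and 1913, 2467, 2705 and 2179 in WT, and Rpl36al, with no listed copy, had 50.6, 207, 46.4 and 124 in KO and 175, 69.1, 154 and 125 in WT. Neither showed that order, nor did Rplp2. The log2 differences between hosts were -0.13 (SE 0.34) for Rps3 and 0.18 (SE 0.38) for Rpl32.

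For families, 0 of 80 passed the test where 0.238% of all features were called, and the median log2 difference was 0.06, with 41 positive and 39 negative. Leaving out each library in turn gave medians from -0.16 to 0.24. Rps25, a small-subunit protein, gave -0.84 (SE 0.37) and Rps24 gave -0.52, and these were the 2 families with an unadjusted p under 0.05, or 2.5% against 6.75% of all features (adjusted p = 0.724 for both by limma). The Rps2 family, named after its values were seen, was the only 1 of 80 whose groups did not overlap, with KO above WT (2.03% of all features); 0 had KO below WT (2.1% of all features). It had 4151, 5347, 4189 and 5238 in KO and 4040, 4140, 3214 and 2822 in WT (log2 difference 0.42, SE 0.21, adjusted p = 0.752 by limma). Differences above 1 log2 unit in size were found for 20 genes and 11 families. The median SE was 0.79 for genes and 0.41 for families.

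Paralogs can take the place of a partner in part of the ribosomes, so the log2 ratio of paralog to partner was compared in the 3 pairs that could be tested. Rpl22l1 against Rpl22, a pair known from T cell development, had log2 ratios of -2.28, -1.25, -3.24 and -1.39 in KO and -2.01, -3.54, -2.42 and -1.74 in WT. Rpl22 was the more abundant in every library, and the groups overlapped (difference 0.39, exact two-sided permutation p = 0.514). The difference was -0.55 for Rpl7l1 against Rpl7 (exact permutation p = 0.914) and 0.29 for Rpl36al against Rpl36a (exact permutation p = 0.83). Adjusted over the 3 pairs all stood at 0.914, and the smallest p possible was 0.0286. With copies added to both genes the differences were 0.07 for Rpl22l1 (exact permutation p = 0.857), -1.30 for Rpl7l1 (exact permutation p = 0.4) and -0.51 for Rpl36al (exact permutation p = 0.514), so the sign of the last turned.

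The ribosomal proteins outside the name rule and the genes around them were also without a call. Fau, which encodes a ubiquitin-like fusion with the small-subunit protein S30, was near 0 in KO1, had 0.65, 1.56 and 44.6 in KO2 to KO4, and had 97.9, 39.9, 43.6 and 139 in WT (log2 difference -4.25, SE 2.0, adjusted p = 0.740 by limma). The groups overlapped through KO4. Rack1, the small-subunit scaffold, had 4285 to 8527 in KO and 6513 to 9234 in WT, a difference of -0.21. Of 19 TOP messages of translation factors and related genes 0 were called, with 6 positive and a median of -0.09. Over all genes tested 0.236% were called, 43.4% were positive and the median was -0.12. The most abundant, the elongation factor Eef1a1, had 92538, 85487, 137536 and 102830 in KO and 74772, 71971, 93322 and 96720 in WT (log2 difference 0.30, SE 0.24).

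Of 18 TOP regulators and mTORC1 genes 0 were called (9 positive, median -0.01), and Myc, a driver of ribosome production, stood at -0.76 (SE 0.47). Of 40 ribosome biogenesis genes 0 were called (16 positive, median -0.18). Gnl3, nucleostemin, stood at -0.85 (SE 0.42) and Rrp12, a subunit export factor, at -3.30 (SE 1.59), with KO1 and KO2 at 0.90 and 2.20. Nucleolin (Ncl), the most abundant, stood at 0.06. Of 71 tested mitochondrial ribosomal proteins, which serve a separate ribosome, 0 were called, 21 were positive and 50 negative, and the median was -0.51. Among the cell type markers, calls were found in the dendritic cell and the CD4 and regulatory T cell lists. Of all genes tested, 0.236% were called in either direction. Of 9 tested dendritic cell markers 2 were called higher in KO (median 1.34), with sums of 59859 to 151865 in KO and 21779 to 55944 in WT, which did not overlap. That list includes H2-Aa, H2-Ab1 and Cd74, genes of the MHC class II pathway that are not confined to dendritic cells. Which 2 markers were called is not reported here. Of 4 tested CD4 and regulatory T cell markers 1 was called higher (median 1.02), with sums of 1012 to 1508 in KO and 185 to 521 in WT. The 3 tested red blood cell markers had a median of -3.41 and 0 called, with sums of 0 to 1.30 in KO and 101 to 256 in WT. CD8 T cell markers had a median of 0.82, with 11 of 12 positive and 0 called, and macrophage markers of -0.47, with 14 of 15 negative and 0 called. Their part in the ribosomal values was not tested.

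The promoters of the genes share features that the name rule did not use. RefSeq windows of 250 bases before to 50 after the start (GRCm38.p6) were matched for 61 of the 80. A run of a C and at least 4 more pyrimidines beginning within 10 bases of the listed start occurred in 33 of the 61 (54.1%), against 30.8% of all 27025 windows. CCGGAAG, the core of an ETS-family site, occurred on either strand in 37.7% against 9.12% of all windows, and GGGCGG, a GC box, in 62.3% against 35.9%. AAGATGGC, a core of YY1 sites, occurred in 6.56% against 2.88%, and TATAAA in 9.84% against 14.2%. The motifs can overlap, and a match is a description of the letters only. Shown, as examples of the run in genes described above, are 40 bases before to 20 after the start of 4 genes that hold one, with the run in capitals.

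Rps24: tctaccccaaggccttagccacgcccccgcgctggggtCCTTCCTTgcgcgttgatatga
Rps23: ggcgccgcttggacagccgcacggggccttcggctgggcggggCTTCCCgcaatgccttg
Rps12: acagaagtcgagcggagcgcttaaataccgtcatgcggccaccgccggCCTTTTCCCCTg
Rpl18: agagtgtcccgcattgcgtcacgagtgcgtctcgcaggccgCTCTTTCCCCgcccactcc

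These lie at chr14:24490638-24490697 (Rps24, plus strand), chr13:90923082-90923141 (Rps23, plus strand), chr10:23787190-23787249 (Rps12, minus strand) and chr7:45718031-45718090 (Rpl18, plus strand). Rps23 and Rps12 had positive and Rps24 and Rpl18 negative differences between hosts, none of them past the test.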

How the data were processed

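The members and gene lists were chosen with earlier results of these data known. The table holds 1 deposited signal value for each gene and library: reads per gene that the authors divided by DESeq2 size factors, as the table's name says. Partek, DESeq2, STAR 2.7.8a and the mm39 build appear in the submitters' processing notes, with no role given. The counting and its use of strand are not given in the sources used here, so a gene and an overlapping or antisense one cannot be told apart. In each library the low values stood mostly at multiples of 1 step, taken as the worth of 1 read, which gave the estimated depth.

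Values were used as log2(value + 1), and the added 1 shrinks differences between low values. A log2 difference compares means of logs, so a library near 0 can also widen it. Rpl36, with means of 264 in KO and 138 in WT, gave 2.34, and as little as 0.46 with a library left out. A limma model (version 3.58.1, R 4.3.3, eBayes with trend) compared KO with WT for every gene whose mean reached 10, two-sided, with Benjamini-Hochberg adjustment over all genes and a threshold of 0.05. The code was tested on simulated data. Because values include fractions, no count model was run. Paralog ratios and Mtdh were tested by exact permutation of the group labels. Copies were found with BLAST+ 2.17.0 on GENCODE M21 transcripts (GRCm38), taking the best-scoring member, and small nucleolar RNAs were left out. Fragments were estimated from genes with a mean of 20 to 500, other than small RNAs, taking those under 3 reads in a library as undetected and assuming Poisson sampling. Promoters are RefSeq windows on GRCm38.p6, the first for each gene.

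Genes were named by rule: the 6 members with the smallest p per direction, the 3 highest and 3 lowest by mean, the tested pairs, Mtdh, and up to 3 per related list, some of which are given only as part of the list's counts or are not reported here. Alternatives covered the pseudocount, the minimum mean, 4 scalings, a replicate block, sample weights, robust hyperparameters, the definition of the members and each library left out; the summing of copies was added after the data had been seen.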

Additional observations from a re-analysis of the deposited data

Results flagged for a closer look

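In 24 named members and in the summed values of members and families, 52 groups of 4 libraries were examined on the log2 scale for 1 library far from the other 3 (its gap to the nearest, as a share of the range, above Dixon's 95% critical value), and 4 stood out; about 1 in 20 groups does so by chance. Rpl29 had 22.4 in KO1, with the other KO libraries at or near 0. Rpl34 had 115 in WT2, where the other WT libraries had 414 to 441. Rpl36 was listed at 0 in WT2, against 169 to 213 in the other WT libraries. Rpl7l1 had 5.68 in WT2, against 186 to 236 in the other WT libraries. In WT2 a single fragment was worth an estimated 64.5, and in KO1 78.1.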

How the results depend on the processing

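No member and no family was called under any alternative run. Over all genes 34 were called higher and 4 lower in KO. The higher count was 59 with a pseudocount of 10, 15 with a minimum mean of 50 and 94 with sample weights, and 7 to 61 without single libraries. The lower count was 0 with a minimum mean of 50, 7 with quantile normalization and 18 with sample weights, and 0 to 9 without single libraries. With replicate number as a block 0 genes were called in either direction. In the check for pairing, same-numbered KO and WT libraries correlated at 0.02 to 0.08 and did not each correlate best with their own number. Pairing by the same number thus rests on the number only. On the log2 values themselves, the same-numbered libraries correlated at 0.69 to 0.83. In the check, KO1 and KO2 correlated positively with WT1 and WT2 (0.02 to 0.07) and negatively with WT3 and WT4 (-0.09 to -0.02). KO3 and KO4 correlated positively with WT3 and WT4 (0.04 to 0.10) and negatively with WT1 and WT2 (-0.09 to -0.02). The main model held no term for this grouping. Mtdh stayed at -1.23 but missed the threshold with a minimum mean of 50 (adjusted p = 0.0945, limma) and with the block (adjusted p = 0.0627), and ranged from -1.38 to -1.04 without single libraries, with adjusted p up to 0.241; among these it missed the threshold without KO2 (-1.33), KO3, KO4, WT1 or WT2. The causes were not tested.

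The members' median ran from -0.38 (without WT2) to 0.11 (without KO1) without single libraries, and from -0.25 to 0.12 over the other alternatives on the genes as listed. That of the families ran from 0.004 to 0.14 under other scalings. Members with low means have wide intervals, and the libraries held 111000 to 636000 estimated fragments; the share of depth in those widths was not tested. Reads shared with near-identical copies cannot be assigned from the deposited values.

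Some log2 differences of genes that were not called changed sign. With sample weights Ncl became -0.24, Rpl13 0.0086, Rpl36a 0.083, Rpl7 -0.18 and Rpl7l1 0.10. With quantile normalization Rpl23a became 0.64, Rpl36a 0.36 and Rpl7l1 0.23, and with protein-coding sum scaling Rpl7 became -0.023. With copies summed Rpl22l1 became -0.11 and Rpl36a 0.028. Without single libraries the ranges that crossed 0 were -0.0071 to 0.44 for Mrpl10, -0.083 to 0.22 for Ncl, -0.32 to 0.026 for Rack1, -0.42 to 0.34 for Rpl13 and -0.19 to 0.50 for Rpl22l1. They were -1.55 to 0.18 for Rpl36a, -0.0022 to 0.45 for Rpl4, -0.23 to 0.25 for Rpl7, -1.75 to 0.56 for Rpl7l1, -1.23 to 0.62 for Rps27l and -1.82 to 0.49 for Rps29. For the paralog pairs they were -1.52 to 0.49 for Rpl7l1 against Rpl7 and -0.42 to 1.07 for Rpl36al against Rpl36a, which became -0.51 with copies summed.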
